A study of Mus musculus with 9 samples.

Results

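The transcripts of 10 genes of the DNA damage checkpoint were followed in naïve mouse embryonic stem cells (mESCs) and primed epiblast stem cells (mEpiSCs). The genes, *Atm*, *Atr*, *Atrip*, *Topbp1*, *Rad9a*, *Hus1*, *Clspn*, *Chek1*, *Chek2* and *Wee1*, were chosen by name as the kinases of the pathway and their direct partners, and are 10 of the 54232 genes in the count table. They and all other gene lists were chosen with earlier results of these data known, so their shares set beside those of all genes are descriptions. All 10 had one Ensembl ID each and passed the filter on low counts in every comparison. Naïve cells were grown in serum and LIF medium (S/L), and primed cells had been converted from naïve cells by culture in medium with Fgf2 and Activin A (F/A). Both were kept on feeders, which were mouse embryonic fibroblasts (MEFs) inactivated with mitomycin C, and both were sampled after 5 passages (P5) and after 10 more (P15). There were 2 libraries for each state and passage, and 1 library of MEFs. All came from the strain background labelled C57 x CBA and the labels name no damaging agent for any of them. The labels name no clone and do not say whether the libraries of a group were separate cultures. Figure legends of the study speak of 2 biological repeats for expression levels, without defining a repeat. The p-values therefore measure only the spread between these libraries, which may still be technical in part or in whole.

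The checkpoint halts the cell cycle when DNA is broken or replication stalls. *Atm* encodes the kinase that responds to double-strand breaks, and *Atr* encodes the related kinase that responds to single-stranded DNA coated with RPA, to which its partner *Atrip* binds. *Atr* is switched on by *Topbp1*, which is brought to the damage by a ring-shaped clamp made of *Rad9a*, *Hus1* and *Rad1* protein. Claspin, from *Clspn*, then lets the kinase reach *Chek1*, while *Atm* acts mainly through *Chek2*. *Chek1* and *Wee1* keep cyclin-dependent kinases inactive, the former by way of Cdc25 phosphatases and the latter by phosphorylating the kinases themselves. Pluripotent stem cells spend much of their short cycle in S phase, when this pathway is in constant use.

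The MEF library held 25646547 counts and the pluripotent libraries held between 14378051 and 20985136. Levels are given as CPM, the share of a library's counts on a common scale, with library sizes scaled by TMM. The labelled states matched their markers, with 7 of 7 naïve markers lower and 7 of 7 primed markers higher in primed cells at both passages by edgeR (adjusted p under 0.01). The naïve markers *Zfp42* and *Nr0b1* had no counts in MEFs, while *Klf4* had 57.6, *Klf2* 44.6 and *Tbx3* 42.1 CPM there. The 7 naïve markers summed to 144.5 CPM in MEFs and to 107 to 109 CPM in primed P15 libraries. The median level of 20 fibroblast markers relative to MEFs was 13.9% in naïve P5 libraries, 17.8% to 17.9% in naïve P15, 14.5% to 14.7% in primed P5 and 25.3% to 25.5% in primed P15 libraries. Their summed level was 7032 to 7067 CPM in naïve P5 libraries, 12523 to 13178 in naïve P15, 4806 to 4899 in primed P5 and 12394 to 12855 in primed P15 libraries. The markers did not move as one between states. At P5, 10 of the 20 were lower in primed cells and 6 higher by edgeR, against 31.1% and 31.2% of all genes. *Col1a1* was at 2092 and 2116 CPM in naïve P5 and at 776 and 752 in primed P5 libraries, there 2.88% to 2.97% of its MEF level. *Dcn* was at 36.9 and 43.1 CPM in naïve P5 and at 465 and 457 in primed P5 libraries. Relative to MEFs *Dcn* was the highest marker, at 216% to 220% in primed P5 and at 341% to 354% in primed P15 libraries, and it was kept in the median. The part of fibroblast RNA in the results was not tested beyond 2 subtractions of a share of the MEF profile, given with the dependence on processing. In these bulk samples, fewer cells of a type and less RNA per cell cannot be told apart.

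The start sites of the 10 genes were read for the letters bound by cell cycle regulators, since the other genes of S and G2/M phase are given beside the results. RefSeq promoter windows of 300 bases, 250 before the start site and 50 from it, were matched for 8 of the 10 genes (assembly GRCm38.p6). *Wee1* and *Rad9a* had no entry in the table used. Of the E2F letters (TTTCCCGC, TTTCGCGC, TTTGCCGC or TTTGGCGC, on either strand), a match was present in 3 of the 8 genes, *Chek2*, *Clspn* and *Topbp1*, against 2.26% of all 32851 promoters and 3.74% of the 15310 promoters of genes with counts. The letters TTTGAA, the core of the element named CHR, were present in 1 of 8, *Hus1*, which held them at 2 places, against 17.9% of all promoters and 1844 of the 15310 of genes with counts. CCAAT was present in 4 of 8, against 37.4% and 37.5%. No searched motif contains another. A match is a description of the letters and not of binding. The 4 windows with an E2F or CHR match are shown from 220 bases before the start site to 29 after it, on the strand of the gene, with the match in capitals. Every match lies on the opposite strand and is therefore printed as its reverse complement. *Chek2* is at chr5:110839763-110840012 (+), *Clspn* at chr4:126556760-126557009 (+), *Topbp1* at chr9:103305107-103305356 (+) and *Hus1* at chr11:9011162-9011411 (-).
Chek2: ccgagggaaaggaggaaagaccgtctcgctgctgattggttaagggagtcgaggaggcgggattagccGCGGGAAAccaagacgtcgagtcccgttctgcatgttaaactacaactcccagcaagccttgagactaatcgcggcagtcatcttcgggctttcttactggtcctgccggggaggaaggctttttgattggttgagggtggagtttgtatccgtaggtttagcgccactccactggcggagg
Clspn: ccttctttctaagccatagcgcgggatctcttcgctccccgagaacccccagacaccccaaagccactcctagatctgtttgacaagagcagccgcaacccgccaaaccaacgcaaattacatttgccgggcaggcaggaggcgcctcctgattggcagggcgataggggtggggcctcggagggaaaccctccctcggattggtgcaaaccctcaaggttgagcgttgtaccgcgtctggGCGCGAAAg
Topbp1: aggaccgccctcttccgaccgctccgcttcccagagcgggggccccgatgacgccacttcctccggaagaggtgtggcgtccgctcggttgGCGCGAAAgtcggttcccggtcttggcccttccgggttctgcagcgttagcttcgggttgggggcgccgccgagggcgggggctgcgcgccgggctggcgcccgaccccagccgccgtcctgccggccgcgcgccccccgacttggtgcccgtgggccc
Hus1: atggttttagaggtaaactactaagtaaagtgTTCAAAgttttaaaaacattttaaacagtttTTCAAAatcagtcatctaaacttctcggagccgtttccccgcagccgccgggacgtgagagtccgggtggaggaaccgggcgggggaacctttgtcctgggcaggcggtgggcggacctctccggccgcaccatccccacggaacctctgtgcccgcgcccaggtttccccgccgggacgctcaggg
The capitals lie at -152 to -145 in *Chek2*, at 21 to 28 in *Clspn*, at -129 to -122 in *Topbp1*, and at -188 to -183 and -157 to -152 in *Hus1*, counted from the start site as 0.

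The first comparison asked whether checkpoint transcripts differed between the pluripotent states. At P5, the primed level was lower for 8 of the 10 genes and higher for 0 by edgeR's quasi-likelihood test (adjusted p under 0.01), against 31.1% of the 16482 genes tested lower and 31.2% higher. At an unadjusted p under 0.05 the counts were 9 and 0, and the share of all genes at that p was not counted here or below. By DESeq2 they were 6 and 0, against 25.3% of all genes lower and 24.1% higher. On the TMM scale, both primed libraries were below both naïve libraries for all 10 genes, a separation that was not counted over all genes. It held for *Atrip* and *Rad9a* too, which were not called. At P15, 7 were lower and 1 was higher, against 28.4% of 15733 genes lower and 28.2% higher. At an unadjusted p under 0.05 the counts at P15 were again 7 and 1. DESeq2 gave 7 and 0, against 23.6% of all genes lower and 22% higher. Over the 10 genes, the log2 fold changes had a median of -0.43 at P5 and -0.47 at P15, beside 0.01 and -0.0039 over all genes tested. Scaling by library size alone moved the median of all genes at P5 from 0.0078 to 0.2106, and with it the split of calls to 21.5% lower and 41.3% higher. On that scale, 6 of the 10 genes were lower at P5 and 0 higher, and *Atrip* and *Topbp1* had small positive fold changes. The changes were small, since only *Hus1* at P5 passed a fold change of 2, as did 8.85% of all genes in that direction. None of the 10 did so at P15, where 11.0% of all genes did.

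**Figure D1:**
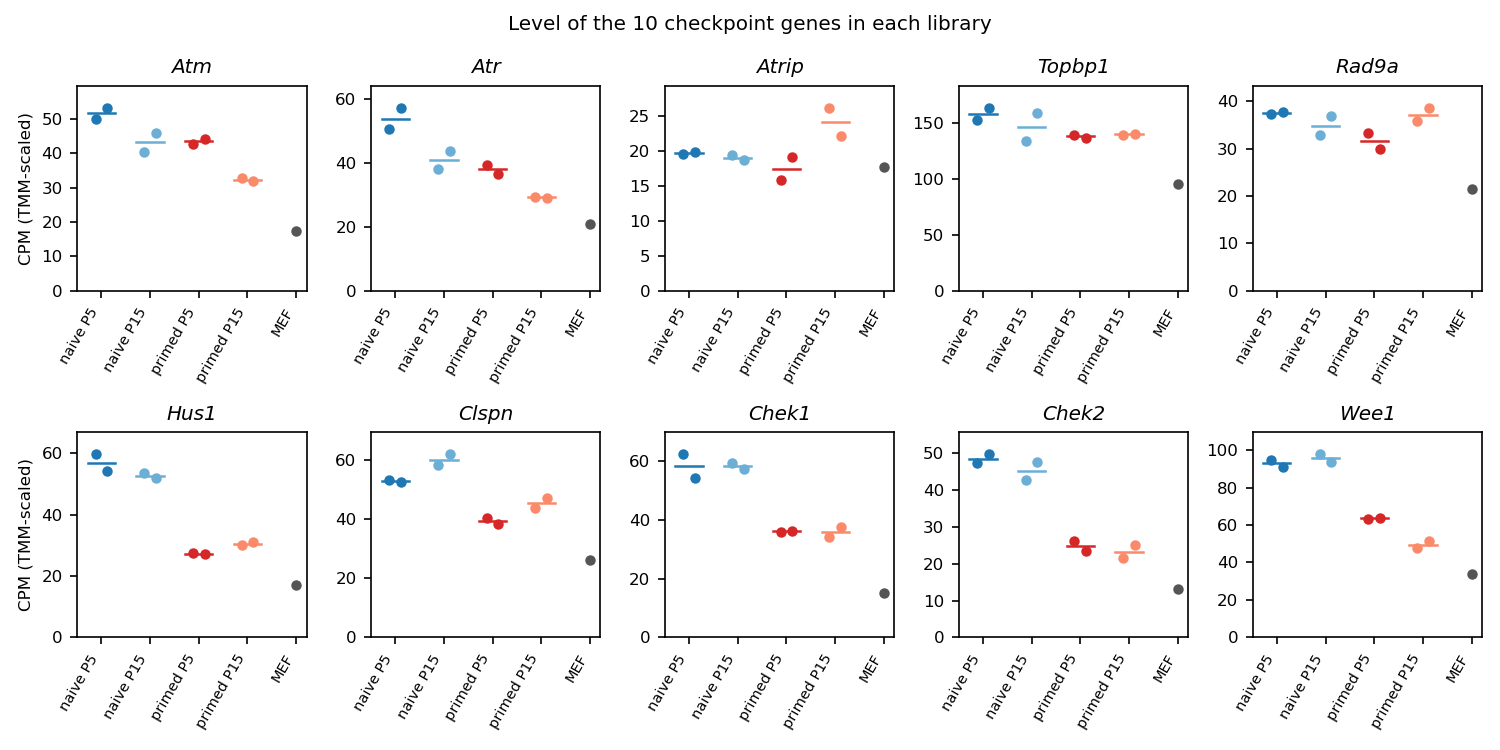
CPM (TMM-scaled, linear axes from 0) of each of the 10 checkpoint genes, with 1 point per library, a line at the mean of the 2 libraries of a group, and the single MEF library in grey. *Chek1*, *Chek2*, *Wee1*, *Clspn* and *Hus1* separate into a high naïve and a low primed level, *Atm* and *Atr* are highest in naïve P5 and lowest in primed P15 among the pluripotent libraries, and *Topbp1*, *Rad9a* and *Atrip* stay close to level or, for *Atrip*, are highest at primed P15.

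The clamp subunit *Hus1* (ENSMUSG00000020413, chr11:8993137-9011191, minus strand, mm10) had the largest difference at P5. It was at 59.6 and 54.1 CPM in naïve P5 libraries and at 53.6 and 51.8 in naïve P15 libraries. In primed libraries it was at 27.4 and 27.1 CPM at P5 and at 30.1 and 31.0 at P15, and MEFs had 17.1. The lowest naïve library was thus well above the highest primed library. *Hus1* was 2.04-fold lower in primed cells at P5 (log2 fold change -1.03, SE 0.069, edgeR adjusted p = 5.26e-14) and 1.74-fold lower at P15 (-0.80, SE 0.084, adjusted p = 2.10e-10).

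*Rad9a* (ENSMUSG00000024824, chr19:4195196-4201662, minus strand), the clamp subunit whose tail binds *Topbp1* protein, did not share that difference. Its level was 37.3 and 37.7 CPM in naïve P5 libraries and 32.9 and 36.8 in naïve P15 libraries. Primed libraries had 33.2 and 29.95 CPM at P5 and 35.8 and 38.6 at P15, and MEFs had 21.4. The P5 groups did not overlap and the P15 groups did. The log2 fold change was -0.21 at P5 (interval -0.36 to -0.06, edgeR adjusted p = 0.0104), just outside the threshold, and 0.08 at P15 (-0.10 to 0.26, adjusted p = 0.443), where it was -0.02 without naïve P15 replicate 1. At P5 the call was gained with DESeq2's size factors (edgeR adjusted p = 0.00954), the replicate block (0.00935) and a block with crossed pairs (0.00406). It was also gained with the lowest feeder share subtracted (0.00643) and without naïve replicate 1 (log2 fold change -0.25), but not under the others. Over the alternatives the adjusted p ranged from 0.00406 to 0.899. *Rad9a* shares 225 bases, 9.53% of its exon sequence, with *Ppp1ca* on the opposite strand, which had 60032 counts over all libraries, and the strand setting of the counting is not given in the sources used here.

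The uneven level of the clamp subunits can be read within a library, free of scaling. The ratio of *Hus1* to *Rad9a* counts was between 1.41 and 1.63 in the 4 naïve libraries and between 0.804 and 0.906 in the 4 primed libraries, and it was 0.801 in MEFs. The naïve and primed ratios did not overlap at either passage. *Rad1*, the third clamp subunit, named here after its values were seen, was lower in primed cells at P5 (35.2 against 25.3 CPM, log2 fold change -0.44, edgeR adjusted p = 1.30e-05) and at P15 (33.7 against 23.8 CPM, -0.51, adjusted p = 2.15e-05). The paralogue *Hus1b* had 62 counts in all 9 libraries together.

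*Topbp1* (ENSMUSG00000032555, chr9:103305215-103350428, plus strand), the activator of *Atr*, had the most counts of the 10. It was at 152 and 163 CPM in naïve P5 libraries, at 134 and 159 in naïve P15 libraries, at 139 and 136 in primed P5 libraries and at 139 and 140 in primed P15 libraries, and MEFs had 94.97. The primed libraries lay within a narrow band that fell inside the range of the naïve P15 libraries. The log2 fold change was -0.16 at P5 (SE 0.043, edgeR adjusted p = 0.00122) and turned to 0.04 (adjusted p = 0.423) with library size alone. At P15 it was -0.08, with an interval of -0.22 to 0.06 and an adjusted p of 0.295, and 0.02 with library size alone. The P5 call was lost without naïve replicate 2 (adjusted p = 0.0142) and without primed replicate 1 (0.0246) or 2 (0.0593), and over the alternatives its adjusted p ranged from 7.17e-06 to 0.423.

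*Atm* (ENSMUSG00000034218, chr9:53439149-53536740, minus strand) was at 50.02 and 53.1 CPM in naïve P5 libraries and at 40.4 and 45.9 in naïve P15 libraries. Primed libraries had 42.7 and 44.1 CPM at P5 and 32.7 and 31.9 at P15, and MEFs had 17.5. Primed cells were below naïve cells of the same passage, while the naïve P15 range included the primed P5 libraries. *Atm* was 1.16-fold lower at P5 (log2 fold change -0.22, SE 0.062, edgeR adjusted p = 0.00253) and 1.35-fold lower at P15 (-0.43, SE 0.089, adjusted p = 6.46e-05). The P5 call was lost without naïve replicate 2 (adjusted p = 0.0165, log2 fold change -0.20), without primed replicate 1 (0.0662, -0.17) and without primed replicate 2 (0.0227, -0.21), and with library size alone the log2 fold change was -0.02. Over the alternatives the adjusted p at P5 ranged from 0.000319 to 0.833. Like that of *Topbp1*, the P5 call of *Atm* was also lost with DESeq2, with no filter on low counts and with a median feeder share subtracted. The P15 call was lost with the median feeder share subtracted (adjusted p = 0.0106), the highest of a range that began at 6.79e-07.

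*Atr* (ENSMUSG00000032409, chr9:95857597-95951781, plus strand) was at 50.6 and 57.3 CPM in naïve P5 libraries and at 38.3 and 43.9 in naïve P15 libraries. It was at 39.6 and 36.7 CPM in primed P5 libraries and at 29.6 and 29.1 in primed P15 libraries, and MEFs had 20.8. Like *Atm*, it was highest in naïve P5 and lowest in primed P15 among the pluripotent cells. It was 1.38-fold lower in primed cells at P5 (log2 fold change -0.47, SE 0.068, edgeR adjusted p = 5.03e-07) and 1.41-fold lower at P15 (-0.50, SE 0.092, adjusted p = 1.18e-05).

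*Atrip* (ENSMUSG00000025646, chr9:109057933-109074124, minus strand) did not follow its partner. Naïve libraries had 19.6 and 19.9 CPM at P5 and 19.4 and 18.7 at P15. Primed libraries had 15.8 and 19.2 CPM at P5 and 26.2 and 22.2 at P15, the highest of the 9, and MEFs had 17.8. At P5 the log2 fold change was -0.15 (interval -0.36 to 0.06, edgeR adjusted p = 0.200), or 0.06 with library size alone. At P15 *Atrip* was 1.26-fold higher in primed cells (0.33, SE 0.11, adjusted p = 0.00969), the only gene of the 10 that was higher. That call was lost without naïve P15 replicate 1 (adjusted p = 0.0274) or 2 (0.0832), without primed P15 replicate 1 (0.144, log2 fold change 0.24), and with DESeq2 (0.0759), and over the alternatives the adjusted p ranged from 0.00139 to 0.144.

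The counts of *Atrip* carry a limit of annotation. The gene *Trex1* lies wholly within *Atrip* exons on the same strand and takes 16.04% of their bases, and it was listed at 0 counts in all 9 libraries, so reads from *Trex1* cannot be told apart from those of *Atrip* here or were not counted. With that limit, the ratio of *Atr* to *Atrip* counts was 2.58 and 2.88 in naïve P5 libraries, 1.97 and 2.35 in naïve P15 libraries and 2.50 and 1.91 in primed P5 libraries. It was 1.13 and 1.31 in primed P15 libraries, below the other 6 pluripotent libraries and close to the 1.17 of MEFs.

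*Clspn* (ENSMUSG00000042489, chr4:126556935-126593903, plus strand), whose product Claspin links *Atr* to *Chek1*, was at 53.4 and 52.6 CPM in naïve P5 libraries and at 58.6 and 62.0 in naïve P15 libraries. Primed libraries had 40.5 and 38.5 CPM at P5 and 43.9 and 47.3 at P15, and MEFs had 26.1. Every naïve library was above every primed library. *Clspn* was 1.31-fold lower in primed cells at P5 (log2 fold change -0.39, SE 0.062, edgeR adjusted p = 2.23e-06) and 1.33-fold lower at P15 (-0.41, SE 0.078, adjusted p = 1.78e-05).

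The effector kinases *Chek1* and *Chek2* differed by similar folds at both passages. *Chek1* (ENSMUSG00000032113, chr9:36708482-36727065, minus strand), the main target of *Atr*, was at 62.4 and 54.3 CPM in naïve P5 libraries and at 59.4 and 57.3 in naïve P15 libraries. In primed libraries it was at 36.1 and 36.4 CPM at P5 and at 34.3 and 37.6 at P15, and MEFs had 15.1. The primed level was 1.57-fold lower at P5 (log2 fold change -0.65, SE 0.067, edgeR adjusted p = 7.46e-10) and 1.64-fold lower at P15 (-0.71, SE 0.082, adjusted p = 1.58e-09). *Chek2* (ENSMUSG00000029521, chr5:110839979-110874145, plus strand), the main target of *Atm* and one of the 3 genes with an E2F match in the windows shown, was at 47.3 and 49.7 CPM in naïve P5 libraries and at 42.8 and 47.6 in naïve P15 libraries. Primed libraries had 26.04 and 23.4 CPM at P5 and 21.5 and 25.1 at P15, and MEFs had 13.1. It was 1.92-fold lower in primed cells at P5 (-0.94, SE 0.073, adjusted p = 1.655e-12) and 1.96-fold lower at P15 (-0.97, SE 0.096, adjusted p = 3.88e-11). For both kinases, no naïve library came down to the level of any primed library. The ratio of *Chek1* to *Chek2* counts ran from 1.09 to 1.39 in naïve libraries and from 1.39 to 1.59 in primed libraries, so the ranges over both passages overlapped at that bound. Within a passage they did not. The ratio was 1.317 and 1.093 in naïve P5 and 1.385 and 1.555 in primed P5 libraries. At P15 it was 1.389 and 1.204 in naïve and 1.592 and 1.501 in primed libraries.

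*Wee1* (ENSMUSG00000031016, chr7:110122046-110143286, plus strand), the kinase that holds cyclin-dependent kinases inactive before mitosis, was at 95.03 and 91.1 CPM in naïve P5 libraries and at 97.7 and 93.6 in naïve P15 libraries. Primed libraries had 63.4 and 63.7 CPM at P5 and 47.5 and 51.7 at P15, and MEFs had 34.0. The naïve level was flat with passage and the primed level was not. *Wee1* was 1.43-fold lower in primed cells at P5 (log2 fold change -0.52, SE 0.050, edgeR adjusted p = 1.89e-10) and 1.94-fold lower at P15 (-0.96, SE 0.072, adjusted p = 2.885e-14).

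**Figure D2:**
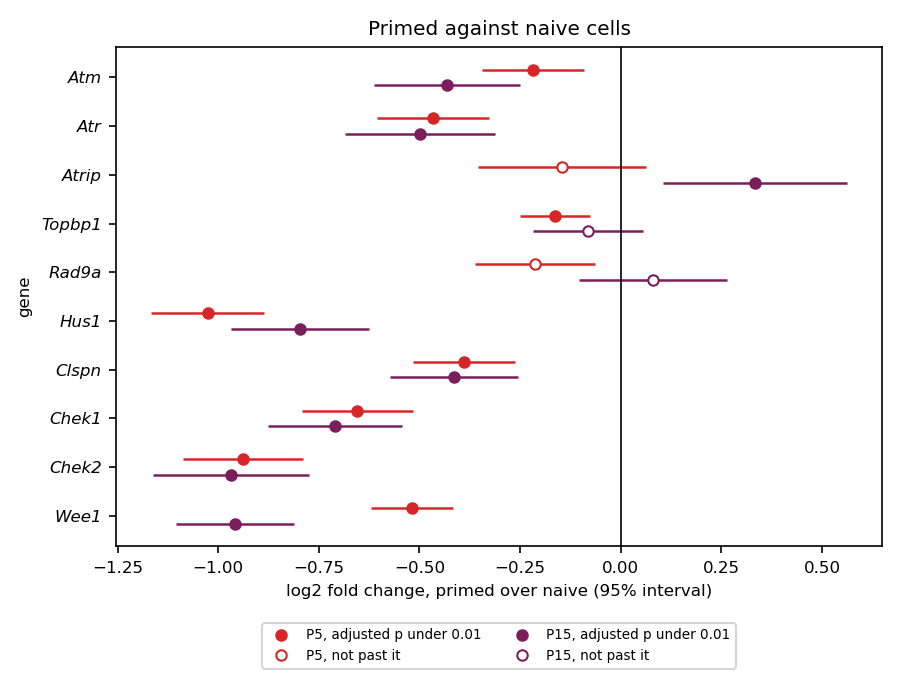
Log2 fold change of primed over naïve cells for the 10 checkpoint genes at P5 and P15, with 95% intervals and filled points where the edgeR adjusted p was under 0.01. *Hus1*, *Chek2*, *Chek1*, *Wee1*, *Atr*, *Clspn* and *Atm* lie left of 0 at both passages, *Topbp1* passed the threshold at P5 (there turning positive with library size alone), and *Atrip* lies right of 0 at P15.

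The second comparison asked how the levels moved with passage within each state. In naïve cells, 1 of the 10 genes differed between P15 and P5, against 9.22% of the 15683 genes tested in either direction. At an unadjusted p under 0.05, 2 were lower and 1 was higher. DESeq2 called 1 lower, against 3.62% of all genes lower and 3.16% higher. The gene was *Atr*, 1.31-fold lower at P15 (log2 fold change -0.39, SE 0.082, edgeR adjusted p = 0.00537). This call was lost without naïve P5 replicate 2 (adjusted p = 0.0253) and without naïve P15 replicate 1 (0.0292), and over the alternatives the adjusted p ranged from 4.03e-06 to 0.0487. *Atm* had -0.25 (adjusted p = 0.0302) and *Clspn* 0.19 (adjusted p = 0.0486) without passing, though *Atm* passed with the replicate block. The other 7 genes lay between -0.11 and 0.04. In the same comparison, 11 of the 20 fibroblast markers were higher at P15 and 2 were lower, beside the 9.22% of all genes.

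In primed cells, 3 genes were lower at P15 than at P5 and 1 was higher, against 22.8% of the 15957 genes tested lower and 24.3% higher. At an unadjusted p under 0.05 the counts were 3 and 3. DESeq2 gave 3 and 0, against 16.5% of all genes lower and 18.1% higher. Of the 10 genes, those that fell were *Atm* (1.37-fold, log2 fold change -0.46, edgeR adjusted p = 9.92e-06), *Atr* (1.33-fold, -0.41, adjusted p = 8.29e-05) and *Wee1* (1.31-fold, -0.39, adjusted p = 1.70e-05). *Atrip* rose 1.36-fold (0.44, adjusted p = 0.00104), a call lost without primed P5 replicate 1 (adjusted p = 0.0760), without primed P15 replicate 1 (0.0126), with library size alone (0.0174) and with DESeq2 (0.0158). Over the alternatives its adjusted p ranged from 2.01e-06 to 0.0760. *Rad9a* had 0.20 (adjusted p = 0.0345), *Clspn* 0.17 (0.0450) and *Hus1* 0.13 (0.180), while *Chek1* had -0.04 (0.658), *Chek2* -0.12 (0.293) and *Topbp1* -0.01 (0.857), and none of these passed. The fibroblast markers moved in the same comparison, with 19 of 20 higher at primed P15 than at primed P5 and 0 lower. All of the 10 genes except *Atrip* were lower in MEFs than in both primed P5 libraries, and the share of all genes lower in this way was not counted. The part of fibroblast RNA in these changes with passage was not tested beyond the subtractions of a share of the MEF profile.

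**Figure D3:**
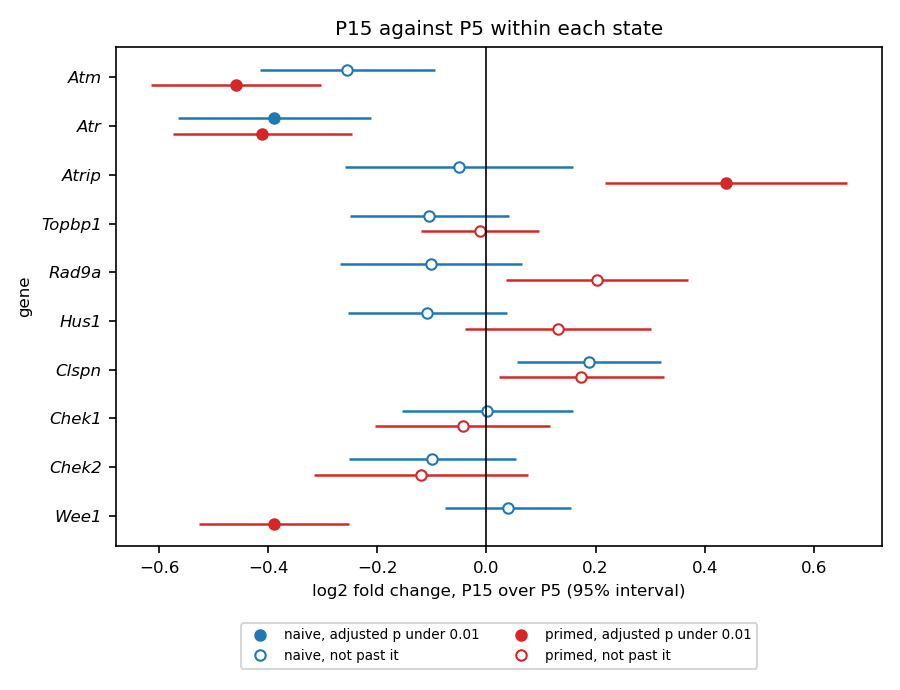
Log2 fold change of P15 over P5 for the 10 checkpoint genes within naïve and within primed cells, with 95% intervals and filled points where the edgeR adjusted p was under 0.01. *Atr* lies left of 0 in both states, *Atm* and *Wee1* passed the threshold in primed cells, and *Atrip* lies right of 0 in primed cells.

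Whether the primed effect itself differed between passages was tested in 1 fit over all 8 pluripotent libraries. Of the 10 genes 1 passed, against 24.1% of the 16926 genes tested in either direction. At an unadjusted p under 0.05, 1 was lower and 3 were higher. DESeq2 called 1 lower, against 8.23% of all genes lower and 10% higher. The gene was *Wee1*, whose log2 fold change was more negative at P15 by 0.42 (difference -0.42, interval -0.60 to -0.25, edgeR adjusted p = 0.000257). *Atrip* missed the threshold with a difference of 0.50 (interval 0.18 to 0.81, adjusted p = 0.0117), and it passed without primed P5 replicate 2 (adjusted p = 0.00798) and without primed P15 replicate 2 (0.00438). Over the alternatives its adjusted p ranged from 0.00438 to 0.147. *Rad9a* had 0.31 (interval 0.07 to 0.55, adjusted p = 0.0364) and *Hus1* 0.25 (0.03 to 0.46, adjusted p = 0.0753). For *Chek1*, *Chek2*, *Clspn* and *Atr* the difference was between -0.04 and -0.01, with intervals that reached from -0.27 to 0.24 at their widest, for *Chek2*.

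Levels of different genes were set side by side per kilobase of the longest coding transcript in GENCODE M21. In naïve P5 cells the order was *Topbp1* with 30.2 CPM per kilobase, *Wee1* with 27.2, *Chek2* with 21.3, *Rad9a* with 18.0, *Chek1* with 15.4, *Hus1* with 12.2, *Clspn* with 10.5, *Atrip* with 7.68, *Atr* with 6.66 and *Atm* with 5.27. No neighbours in this order had overlapping libraries. In naïve P15 cells *Topbp1* and *Wee1* overlapped, at 28.02 and 27.98 CPM per kilobase, and the other neighbours did not. In primed P5 cells *Topbp1* led with 26.4 CPM per kilobase, *Rad9a* with 15.2 stood above *Chek2* with 10.9, *Hus1* with 5.88 stood below *Atrip* with 6.80, and no neighbours overlapped. At primed P15 *Topbp1* had 26.7 CPM per kilobase, *Rad9a* 17.9 and *Wee1* 14.5. *Chek2* with 10.2, *Chek1* with 9.46, *Atrip* with 9.40 and *Clspn* with 9.07 followed without separation between neighbours, and *Hus1* with 6.58, *Atr* with 3.62 and *Atm* with 3.30 came last. The apical kinases *Atr* and *Atm* thus had the lowest levels per kilobase in all 4 groups and in MEFs. By the length of all annotated exons, *Wee1* came first in naïve P5, naïve P15 and primed P5 cells and *Rad9a* at primed P15, *Topbp1* was at rank 3 or 4, *Atr* was last, and *Atm* was at rank 8 or 9.

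In the single MEF library, 9 of the 10 genes were below every naïve and primed library, and *Atrip* with 17.8 CPM was above 1 primed P5 library with 15.8. This comparison has no replicate check, and the share of all genes below every naïve and primed library was not counted. The naïve P5 mean stood above MEFs by 3.87 times for *Chek1*, 3.70 times for *Chek2* and 3.32 times for *Hus1*, and by 1.11 times for *Atrip*. In primed P15 cells these ratios were 2.39 for *Chek1*, 1.78 for *Chek2*, 1.78 for *Hus1* and 1.36 for *Atrip*.

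Of the 10 genes, 5 lie on chromosome 9, namely *Atm*, *Atr*, *Atrip*, *Chek1* and *Topbp1*. All tested genes of chromosome 9 had a median log2 fold change of 0.06 at both passages, over 929 genes at P5 and 878 at P15. Autosome medians ran from -0.10 to 0.14 at P5 and from -0.10 to 0.06 at P15. The lower levels of *Atm*, *Atr* and *Chek1* at both passages were thus not shared by the chromosome's median. Smaller regions of the chromosome were not tested.

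The rest of the pathway was read from a list of 46 other genes, called other checkpoint genes here. The list includes genes of replication and the cell cycle, among them *Rpa1*, *Rfc5* and *Ccne1*. At P5, 33 of the 45 tested were lower in primed cells and 4 were higher, with a median log2 fold change of -0.35, beside 31.1% and 31.2% of all genes tested. At P15, 26 of 46 were lower and 3 were higher, with a median of -0.29, beside 28.4% and 28.2% of all genes. These shares hold for each group that follows. The group of clamp, clamp loader, RPA and fork protection genes had the lowest medians, with 12 of 14 lower and 1 higher at P5 (median -0.65) and 10 of 15 lower and 1 higher at P15 (-0.70). Genes that signal from double-strand breaks had 5 of 9 lower and 1 higher at each passage, with medians of -0.28 and -0.36. Cell cycle targets had 10 of 12 lower and 1 higher at P5 (-0.32) and 7 of 12 lower and 1 higher at P15 (-0.22), and the p53 arm had 4 of 5 and 3 of 5 lower with 0 higher. The kinases related to *Atm* and *Atr* with their maturation factors had 2 of 5 lower and 1 higher at P5 and 1 of 5 lower at P15, with medians of -0.03 and -0.13.

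Among these genes, those with the largest change held at both passages were *Ccne1*, *Rfc5* and *Rpa1*. *Ccne1*, the cyclin that drives entry into S phase, was at 235 CPM in naïve and 59.9 in primed cells at P5 (log2 fold change -1.94) and at 298 and 89.1 CPM at P15 (-1.75). *Rfc5*, a small subunit of the clamp loader, had -1.14 and -1.17, and *Rpa1*, the large subunit of the protein that coats single-stranded DNA, had -1.32 and -1.12. The edgeR adjusted p was at most 1.35e-17 for these 3 genes at either passage. Genes higher at both passages were *Rhno1*, a clamp-binding factor (29.0 against 36.4 CPM at P5, log2 fold change 0.36, and 28.1 against 43.0 at P15, 0.60), and *Trp53bp1*, a reader of chromatin at breaks (0.31 and 0.39), with edgeR adjusted p values of at most 8.08e-05.

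**Figure D4:**
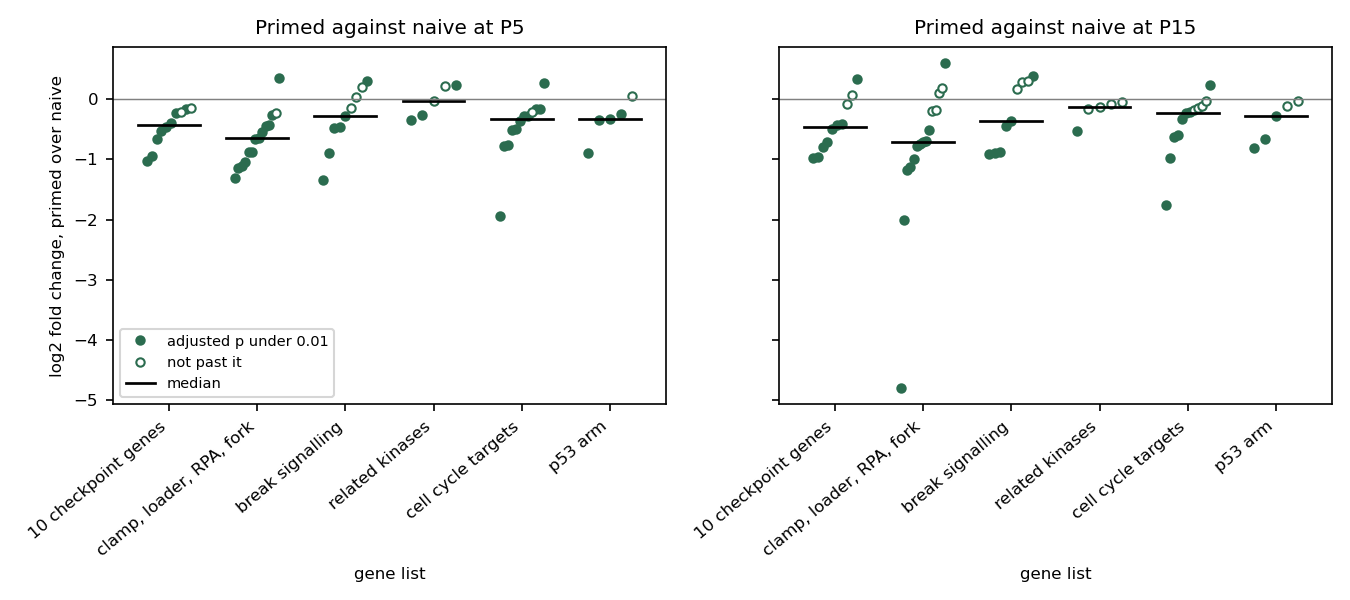
Log2 fold change of primed over naïve cells for the 10 checkpoint genes and 5 lists of other checkpoint genes, at P5 and at P15, with 1 point per gene, filled where the edgeR adjusted p was under 0.01, and a line at the median. The lists include genes of replication and the cell cycle. Most points lie below 0, the clamp, loader, RPA and fork list has the lowest medians (-0.65 and -0.70), and the lowest point at P15 is *Hus1b*, which had 62 counts in all 9 libraries.

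Genes of S phase and G2/M phase are read against the same shares of all genes. Of 37 S phase genes, 33 were lower in primed cells and 0 higher at P5 (median log2 fold change -0.66), and 26 were lower and 1 higher at P15 (-0.50). Of 49 G2/M genes, 37 were lower and 4 higher at P5 (-0.39), and 35 were lower and 1 higher at P15 (-0.33). The summed level of the S phase list was 6128 to 6242 CPM in naïve libraries, 3551 to 3604 in primed P5 libraries, 4340 to 4378 in primed P15 libraries and 1605 in MEFs, and no gene of it was at 0. The part of these lists in the differences of the 10 genes was not tested. With passage in primed cells the S phase list had 19 genes higher and 4 lower, beside 24.3% and 22.8% of all genes. Of the 10 checkpoint genes, 3 were lower (*Atm*, *Atr* and *Wee1*), 1 was higher (*Atrip*) and 6 were not called.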

How the data were processed

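The 9 RNA-seq libraries were grouped by their sample titles into naïve P5, naïve P15, primed P5 and primed P15 (2 libraries each) and MEFs (1 library). The authors sequenced RNA from an RNA mini kit and a NEBNext Ultra library kit, trimmed reads with Cutadapt, aligned them with HISAT2 to mm10 and deposited raw counts per gene made with featureCounts. The annotation release, strand setting and treatment of reads with several alignments of the counting are not given in the sources used here. Gene names and positions came from GENCODE M21, and 92 spike-in entries with 0 counts were left out. The 10 genes and all gene lists were chosen with earlier results of these data known.

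Computations used R 4.3.3, edgeR 4.0.16, limma 3.58.1 and DESeq2 1.42.0. States were compared at each passage, and passages within each state, in fits of 4 libraries with edgeR (quasi-likelihood, TMM factors). A gene was tested if 2 or more libraries held 10 or more counts. The change of the primed effect between passages was a term in a fit of 8 libraries. Benjamini-Hochberg adjustment ran over every gene tested, and calls were made at an adjusted p under 0.01. Intervals are 95% intervals, and SE was taken from the fold change and its F statistic. The biological coefficient of variation was between 3.26% and 4.79%. MEFs entered no fit. The self-test on simulated counts is not quoted. Other genes of the pathway were named by a rule, the 3 in each direction with the largest smaller fold change of the 2 passages among those called the same way at both (only 2 rose). For likeness of pattern, the genes with the smallest root mean square difference of centred log2(CPM + 1) over 8 libraries were taken. Replicates differed by more than sampling noise, with a chi-square per gene of 2.10 to 3.28. Alternatives were DESeq2's size factors and Wald test, library size alone, no filter, a fit of all 8 libraries, a replicate block, 2 subtractions of a feeder share and leaving out each library. Intervals cover counting error and replicate spread only, and depth set a floor of 3 counts, or 0.143 to 0.209 CPM in naïve and primed libraries.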

Additional observations from a re-analysis of the deposited data

Results flagged for a closer look

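For *Wee1*, the difference between primed and naïve cells was itself different at the 2 passages by the interaction term of the edgeR fit (log2 difference -0.423, SE 0.087, adjusted p = 0.000257). Both primed P15 libraries were below both primed P5 libraries, while the naïve libraries of the 2 passages overlapped. Under every alternative run the term stayed below 0, between -0.54 with library size alone and -0.36 without primed P15 replicate 1, and its adjusted p was between 1.12e-05 and 0.00439. In the same comparison of primed passages, 14 of 49 G2/M genes were lower and 11 were higher, near the 22.8% and 24.3% of all genes, and 19 of 20 fibroblast markers were higher.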

How the results depend on the processing

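Of 650 values for single genes under the alternatives, 610 stayed on their side of the threshold, 29 lost the call, 10 gained it and 1 called gene changed sign, *Topbp1* at P5 with library size alone (0.0395). Of the 610, 44 changed sign, all of them values of genes that were not called. With library size alone, the median log2 fold change of the 10 genes was -0.23 at P5, -0.36 at P15, -0.16 for primed passage and -0.13 for the change of the primed effect, with 0 genes higher in primed passage. The medians of all genes were then 0.21, 0.10, -0.13 and -0.11, and calls at P15 split into 23.1% lower and 33.0% higher of all genes. The count higher at P15 was 0 with DESeq2's size factors, with DESeq2's Wald test, with the replicate block and with the median feeder share subtracted, and 0 to 1 leaving out single libraries. In naïve passage the count called, all lower, was 0 with no filter, 0 with the median feeder share subtracted (median -0.0497), 2 with the replicate block (*Atm* added) and 0 to 1 leaving out libraries. In primed passage the median was 0.0744 with the median and 0.0414 with the lowest feeder share subtracted, and the count higher was 0 with DESeq2's Wald test and 0 to 1 leaving out libraries. For the change of the primed effect, 2 genes were called, 1 of them higher, with no filter, and 1 to 2 (higher 0 to 1) leaving out libraries. Leaving out libraries, the median ran from -0.46 to -0.36 at P5, from -0.58 to -0.41 at P15 and from -0.12 to -0.0312 in naïve passage. With the replicate block in naïve passage, 9.12% of all genes were lower and 8.63% higher. The cause of the changes between settings was not tested. The feeder share is the median or the lowest ratio of the fibroblast markers to MEFs.

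With a library left out, the lone library of its group was assumed to vary like the other groups. The correlation of deviations of same-numbered libraries was 0.161 between naïve passages and 0.159 between primed passages. Between states it lay between -0.19 and -0.0993. Whether libraries share a factor in this way was not tested. Between states at P5 and at P15 the correlation was under -0.1. A block with crossed pairs, chosen after seeing the data, gave 9 calls at P5 and 8 at P15. Of all genes, it called 32.4% lower and 32.4% higher at P5, and 30.3% and 29.9% at P15. The block without crossing gave 9 and 7. Its shares of all genes were 31% lower and 31% higher at P5, and 25% and 24.8% at P15. In all, 4 libraries a fit limits small changes, as the widest intervals, those of *Atrip*, show.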

Other observations

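For each checkpoint gene called at both passages, the genes whose levels ran closest to it over the 8 naïve and primed libraries were found among 9991 genes, and this is given as a description. The closest to *Atm* was *Armt1* (root mean square difference of centred log2 values 0.0223), to *Wee1* the kinetochore gene *Knl1* (0.0373), to *Clspn* *Nop14* (0.0330), to *Chek1* *Srfbp1* (0.0424) and to *Hus1* *Wdr5* (0.0450). *Atr* and *Chek2* had less close neighbours, *Rps6ka2* (0.0641) and *Atmin* (0.0645). Neighbours were chosen by likeness over these same libraries, so close fold changes follow from the choice. For *Knl1* the log2 fold changes of primed over naïve cells were -0.51 at P5 and -0.99 at P15, beside -0.52 and -0.96 for *Wee1*. The second neighbour of *Wee1*, *Mtus1*, had -0.57 and -0.99.

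*Trp53*, which encodes the p53 protein, was lower in primed cells by -0.89 at P5 and -0.27 at P15 on the log2 scale, a difference that passed the interaction test (0.63, edgeR adjusted p = 1.91e-09). It was at 332 CPM in naïve and 176 CPM in primed cells at P5, and at 335 and 280 CPM at P15. *H2afx*, the histone marked by the checkpoint kinases at breaks, was at 354 and 137 CPM at P5 and at 315 and 172 CPM at P15, with log2 fold changes of -1.34 and -0.88 and a difference between them of 0.47 (adjusted p = 1.62e-06). Both genes were named after their values were seen.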
